A study of Mus musculus with 16 samples.

Results

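The genes described here are the 10 that encode the DNA methyltransferases, the TET dioxygenases, the glycosylase that completes demethylation and their direct partners: Dnmt1, Dnmt3a, Dnmt3b, Dnmt3l, Uhrf1, Uhrf2, Tet1, Tet2, Tet3 and Tdg. They were chosen by name for the function of their products, with earlier results of these data known, and are 10 of the 22375 genes in the deposited count tables. RNA was sequenced from mouse embryonic stem (ES) cells of strain 129/OLA that were either wild type (WT, line E14TG2a) or Cfp1-/-, in each case untreated or treated with doxorubicin for 6 hours. Doxorubicin is a DNA damaging agent that activates p53, and Cfp1 (gene symbol Cxxc1) is the protein that brings the Set1 histone H3 lysine 4 methyltransferase complex to unmethylated CpG dinucleotides. The 4 groups, WT untreated, WT with doxorubicin, Cfp1-/- untreated and Cfp1-/- with doxorubicin, had 2 biological replicates each, and each biological replicate was sequenced in 2 technical runs. All cells were grown on gelatin in serum with LIF. The dose is 1 μM in the methods, whereas the treatment labels give a unit of mM. The Cfp1-/- cells are treated here as 1 line, since the number of clones was not given in the sources used here, so effects of genotype and of line cannot be told apart.

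In mammals, methyl groups on cytosine are set on CpG dinucleotides by Dnmt3a and Dnmt3b with the catalytically inactive cofactor Dnmt3l, and are copied to the new strand at replication by Dnmt1, which Uhrf1 guides to hemimethylated DNA. Tet1, Tet2 and Tet3 oxidize 5-methylcytosine, and Tdg excises the most oxidized forms so that base excision repair can restore cytosine. Mouse ES cells are known for high levels of Tet1, Tet2, Dnmt3b and Dnmt3l, and for setting and removing methylation at the same time.

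Of the 10 genes, 6 were downregulated by doxorubicin in WT ES cells, against 22% of all tested genes, and 1, Tet3, was upregulated, against 26.6%. In Cfp1-/- ES cells, 5 were downregulated, against 20.5%, and Tet3 was again upregulated, against 28.1%. In Cfp1-/- against WT cells, Dnmt1 and Uhrf1, both of the maintenance machinery, were lower and Tdg was higher, untreated and treated. That is 2 of 10 lower, against 16.3% of all tested genes untreated and 10.6% treated, and 1 higher, against 18.1% and 15.5%. Of these differences, only those of Uhrf1 held with each library left out in turn and in all other settings tried. The values below are the normalized read counts of the authors, that is, counts summed over both runs and divided by a size factor per biological replicate. Fold changes, standard errors (SE) and adjusted p-values come from the quasi-likelihood test of edgeR, with the p-values adjusted by Benjamini-Hochberg over 15758 genes, and a gene is called changed at an adjusted p under 0.05.

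The total count of a biological replicate ranged from 14880589 to 29422711. Cxxc1, the targeted gene, had 616 to 1412 counts in the WT and 1 to 5 counts in the Cfp1-/- replicates, as the labels require. All 10 ES cell markers examined were present in every library, from 281 normalized counts upwards, and their summed level was 31398 to 112107. The corresponding sums were 128 to 569 for 6 fibroblast markers and 64.6 to 546 for 5 primitive endoderm markers, against 154 to 2459 for 4 trophoblast markers. Of the ES cell markers, 9 of 10 were lower with doxorubicin in each line, against 22% of all tested genes in WT and 20.5% in Cfp1-/- cells. The 2 runs of a library agreed within counting error for 6 of the 8 biological replicates, where chi-square divided by its degrees of freedom was 0.998 to 1.05. It was 9.61 for treated WT replicate 1 and 42.9 for treated Cfp1-/- replicate 1. In the second run of the latter, 439 of 8320 genes with at least 200 counts in the first run had no counts, of which 209 lie on chromosome 19, 225 on X, 5 on Y and 0 elsewhere. Of the 10 genes only Uhrf2, on chromosome 19, was among them. Without the genes of lost counts, chi-square divided by its degrees of freedom was still 21.5 for treated Cfp1-/- replicate 1. It was 9.70 for treated WT replicate 1, so the runs of both libraries differed beyond these genes. Both second runs were kept in the fit for genes without lost counts. Where leaving out both of these libraries changes a call, the value without them is given below. Since bulk RNA was measured, fewer cells of a type and less RNA per cell cannot be told apart.

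**Figure D1:**
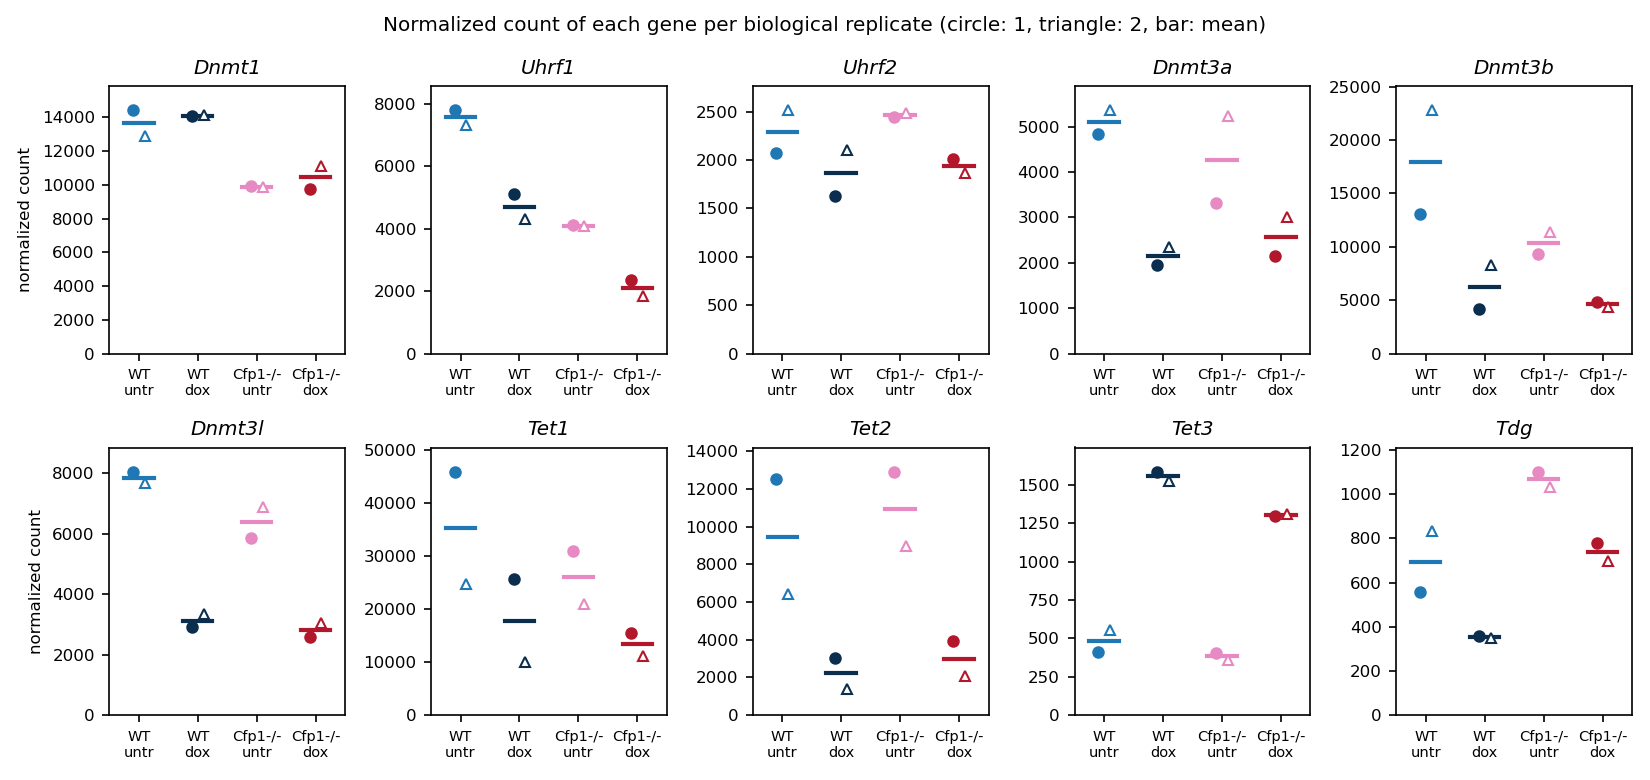
Normalized counts (y axis, from 0 in each panel) of the 10 genes in the 4 groups, untreated (untr) or with doxorubicin (dox), with a circle for replicate 1, an open triangle for replicate 2 and a bar for their mean (n = 2). Tet3 is the only panel in which both treated groups lie above both untreated groups, and in the Dnmt1 and Uhrf1 panels all 4 WT points lie above all 4 Cfp1-/- points.

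Dnmt1, the methyltransferase that copies methylation after replication, lies on chromosome 9 from 20711650 to 20757317 (NCBIM37, minus strand). It had 14425.6 and 12918.1 normalized counts in untreated WT cells and 14089.6 and 14120.9 in treated WT cells. Untreated Cfp1-/- cells had 9907.7 and 9895.4, and treated Cfp1-/- cells had 9740.8 and 11148.8. The 4 WT replicates thus lay above the 4 Cfp1-/- replicates, and treated and untreated replicates overlapped within each line. With doxorubicin the log2 fold change was 0.09 (SE 0.12, adjusted p = 0.572) in WT and 0.12 (SE 0.12, adjusted p = 0.456) in Cfp1-/- cells. In Cfp1-/- against WT cells it was -0.44 (SE 0.12, adjusted p = 0.0225) untreated and -0.41 (SE 0.12, adjusted p = 0.0371) with doxorubicin. The untreated call was lost on leaving out any one of the 4 untreated libraries, where the log2 fold change was -0.52 to -0.34 and the adjusted p 0.0535 to 0.162. The treated call was lost without any one of the 4 treated or the 2 untreated Cfp1-/- libraries, at -0.50 to -0.33, without both treated libraries numbered 1 (-0.33, adjusted p = 0.253) and in the 2 treated groups alone (-0.43, adjusted p = 0.0741). With scaling by total counts neither call held. In the second run of the treated libraries numbered 1, Dnmt1 had 0.701 (WT) and 0.729 (Cfp1-/-) of the counts that the first run and the library sizes predict.

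Uhrf1, which binds hemimethylated DNA and recruits Dnmt1, lies on chromosome 17 from 56442744 to 56462909 (plus strand). Its normalized counts were 7800.2 and 7342.0 in untreated and 5124.4 and 4304.2 in treated WT cells. In Cfp1-/- cells they were 4106.0 and 4096.2 untreated and 2346.9 and 1836.4 treated. The order was the same in every pairing of replicates: untreated WT was highest, treated WT came next, untreated Cfp1-/- was below it and treated Cfp1-/- was lowest, with no overlap between groups. Doxorubicin lowered Uhrf1 by 1.56-fold in WT (log2 -0.64, SE 0.15, adjusted p = 0.00656) and by 1.90-fold in Cfp1-/- cells (log2 -0.93, SE 0.15, adjusted p = 8.85e-04). With total count scaling the WT value was -0.32 (adjusted p = 0.0914), which is not a call. Against WT, Uhrf1 in Cfp1-/- cells was 1.81-fold lower untreated (log2 -0.86, SE 0.15, adjusted p = 0.00275) and 2.21-fold lower treated (log2 -1.15, SE 0.15, adjusted p = 0.0012). Both calls held in all 8 fits that leave out a library and in all 11 other alternatives.

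Uhrf2, a paralog of Uhrf1 that binds modified cytosine but is not known to replace it in maintenance, lies on chromosome 19 from 30105003 to 30168212 (plus strand). Its count in replicate 1 of treated Cfp1-/- cells was 1278 in the first run and 0 in the second, so the first run alone was used there, which gives 2012.3 normalized counts in place of the deposited 1305.2. The other replicate of that group had 1869.2. The remaining values were 2066.6 and 2512.3 in untreated WT, 1623.0 and 2097.7 in treated WT, and 2447.5 and 2483.8 in untreated Cfp1-/- cells. Uhrf2 passed no test, with log2 fold changes of -0.25 (SE 0.15, adjusted p = 0.196) for doxorubicin in WT, which was 0.06 with total count scaling, and -0.31 (SE 0.15, adjusted p = 0.119) in Cfp1-/- cells. With the affected run kept, the latter was -0.59 (adjusted p = 0.0289), a call that comes from the lost counts. The WT response passed the test without treated WT replicate 2 alone, at -0.46 (adjusted p = 0.0476).

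The promoters of Dnmt1 and Uhrf1 are shown because these were the members lower in Cfp1-/- cells in both conditions, and because both are known as genes of proliferating cells. RefSeq gives 3 starts for Dnmt1 and 2 for Uhrf1, and the windows from 250 bases before to 50 after the start were placed in NCBIM37 by exact match. Each has 1 window that holds TTTCGCGC, a form of the E2F consensus, on either strand, and the Dnmt1 window also holds TTTGGCGC. The letters that match are in capitals, the opposite-strand match of Dnmt1 appearing as GCGCGAAA.
Dnmt1, start 3, chr9:20757018-20757317, minus strand: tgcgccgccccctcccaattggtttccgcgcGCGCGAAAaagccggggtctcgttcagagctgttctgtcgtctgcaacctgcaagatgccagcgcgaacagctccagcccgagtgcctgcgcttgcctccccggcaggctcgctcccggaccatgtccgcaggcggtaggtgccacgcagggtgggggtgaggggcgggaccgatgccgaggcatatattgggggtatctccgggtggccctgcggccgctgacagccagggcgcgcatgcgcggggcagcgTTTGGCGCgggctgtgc
Uhrf1, start 2, chr17:56443486-56443785, plus strand: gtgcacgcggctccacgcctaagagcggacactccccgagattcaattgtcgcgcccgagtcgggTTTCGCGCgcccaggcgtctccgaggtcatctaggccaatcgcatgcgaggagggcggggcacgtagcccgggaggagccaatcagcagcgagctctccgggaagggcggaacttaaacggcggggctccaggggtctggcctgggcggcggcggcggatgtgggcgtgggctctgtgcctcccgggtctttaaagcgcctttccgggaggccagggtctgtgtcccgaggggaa
In Dnmt1 the matches begin 219 bases before and 33 bases after this RefSeq start, and in Uhrf1 the match begins 185 bases before it. Both windows lie inside the gene spans given above, so the matches lie within the genes as annotated there. TTTCGCGC was found in 0.323% and TTTGGCGC in 0.514% of 32851 RefSeq mouse promoter windows, and either one in 0.813%. By gene, 251 of 27025 (0.929%) had either in a window. Among the 15 S-phase genes described below, 12 had a window and 5 of these, Cdt1, Mcm3, Mcm5, Mcm6 and Mcm7, held either motif, while none of the other 8 members did. A match is a description of letters, not of binding, and its part in the genotype differences was not tested.

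Dnmt3a, a de novo methyltransferase, lies on chromosome 12 from 3806007 to 3914443 (plus strand). It had 4842.5 and 5362.4 normalized counts in untreated and 1953.1 and 2341.7 in treated WT cells. The Cfp1-/- values were 3314.3 and 5236.3 untreated and 2146.7 and 3011.6 treated. Treated replicates were below untreated ones in both lines. The log2 fold change with doxorubicin was -1.20 (SE 0.23, adjusted p = 0.00191) in WT and -0.69 (SE 0.22, adjusted p = 0.0292) in Cfp1-/- cells. The second call was lost without treated Cfp1-/- replicate 1 (-0.48, adjusted p = 0.175) or untreated Cfp1-/- replicate 2 (-0.34, adjusted p = 0.253), without both treated libraries numbered 1 (-0.48, adjusted p = 0.167), and with total count scaling (-0.47, adjusted p = 0.128). The lines overlapped in both conditions, with log2 fold changes of -0.23 (adjusted p = 0.453) untreated and 0.29 (adjusted p = 0.373) treated.

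Dnmt3b, the de novo methyltransferase most associated with pluripotent cells, lies on chromosome 2 from 153475186 to 153513466 (plus strand). Its normalized counts were 13066.5 and 22780.7 in untreated WT, 4128.9 and 8258.7 in treated WT, 9358.9 and 11402.2 in untreated Cfp1-/- and 4844.9 and 4387.2 in treated Cfp1-/- cells. Within each line the treated and untreated replicates did not overlap, although the WT replicates of a group lay far apart. Doxorubicin changed Dnmt3b by -1.49 on the log2 scale (SE 0.32, adjusted p = 0.00426) in WT and by -1.13 (SE 0.32, adjusted p = 0.0162) in Cfp1-/- cells. The WT value was -2.08 without treated WT replicate 2. The second call was lost on leaving out treated Cfp1-/- replicate 1 (-1.22, adjusted p = 0.0562), treated Cfp1-/- replicate 2 (-1.05, adjusted p = 0.0977) or untreated Cfp1-/- replicate 2 (-0.99, adjusted p = 0.0775). In untreated cells Cfp1-/- was at -0.76 against WT (SE 0.32, adjusted p = 0.0923), which is not a call. It passed with the replicate number as a block (-0.72, adjusted p = 0.0171), with DESeq2 (-0.79, adjusted p = 0.0337) and without the low-count filter (-0.76, adjusted p = 0.0256). Of the 11 alternatives that leave out no single library, 5 called it. This difference also passed without treated WT replicate 1 or 2 (-0.76 in each case, adjusted p = 0.0297 and 0.0295) and without untreated WT replicate 1 (-1.09, adjusted p = 0.0327), and without both treated libraries numbered 1 (-0.76, adjusted p = 0.0435). Without untreated WT replicate 2 it shrank to -0.31 (adjusted p = 0.533). With doxorubicin it was -0.40 (adjusted p = 0.385), and 0.18 without treated WT replicate 2.

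Dnmt3l, the inactive cofactor that stimulates both enzymes, lies on chromosome 10 from 77504692 to 77526367 (plus strand). It had 8044.8 and 7661.0 normalized counts in untreated and 2908.0 and 3332.4 in treated WT cells, and 5853.6 and 6886.8 in untreated and 2580.7 and 3047.2 in treated Cfp1-/- cells. Compared by replicate number, treated cells held 36.1% and 43.5% of the untreated level in WT and 44.1% and 44.2% in Cfp1-/- cells, without overlap. The log2 fold changes were -1.29 (SE 0.14, adjusted p = 8.52e-05) and -1.14 (SE 0.14, adjusted p = 1.79e-04), and all 8 fits that leave out a library and all 11 other alternatives called both. In the second run of the 2 treated libraries numbered 1, Dnmt3l had 0.588 and 0.503 of the counts that the first run and the library sizes predict. Without both libraries the log2 fold changes were -1.19 and -1.04. Against WT the Cfp1-/- values were -0.27 (adjusted p = 0.155) untreated and -0.12 (adjusted p = 0.541) treated.

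Tet1, Tet2 and Tet3 share the dioxygenase domain that oxidizes 5-methylcytosine, and Tet1 and Tet3 also carry a CXXC domain of the kind found in Cfp1. Their promoters are shown with every CpG in capitals, since Tet2 fell and Tet3 rose with doxorubicin, whereas Tet1 was not called. CpG is the dinucleotide that Cfp1 binds, and its part in these responses was not tested. Tdg, which was higher in Cfp1-/- cells, is shown with them.
Tet1, chr10:62350023-62350322, minus strand: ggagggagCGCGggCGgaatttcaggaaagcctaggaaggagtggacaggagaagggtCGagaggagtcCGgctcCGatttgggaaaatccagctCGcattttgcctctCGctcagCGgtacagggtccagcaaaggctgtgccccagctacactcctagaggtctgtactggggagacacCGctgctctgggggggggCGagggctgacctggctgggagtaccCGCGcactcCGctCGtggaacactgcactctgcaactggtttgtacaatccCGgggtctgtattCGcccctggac
Tet2, chr3:133207305-133207604, minus strand: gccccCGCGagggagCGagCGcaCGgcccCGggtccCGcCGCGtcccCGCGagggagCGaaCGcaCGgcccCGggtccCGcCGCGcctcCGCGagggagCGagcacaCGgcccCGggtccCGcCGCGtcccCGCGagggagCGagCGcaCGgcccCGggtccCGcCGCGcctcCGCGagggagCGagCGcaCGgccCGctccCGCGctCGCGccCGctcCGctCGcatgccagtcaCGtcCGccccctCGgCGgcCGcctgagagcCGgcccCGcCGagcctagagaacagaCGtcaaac
Tet3, chr6:83391623-83391922, minus strand: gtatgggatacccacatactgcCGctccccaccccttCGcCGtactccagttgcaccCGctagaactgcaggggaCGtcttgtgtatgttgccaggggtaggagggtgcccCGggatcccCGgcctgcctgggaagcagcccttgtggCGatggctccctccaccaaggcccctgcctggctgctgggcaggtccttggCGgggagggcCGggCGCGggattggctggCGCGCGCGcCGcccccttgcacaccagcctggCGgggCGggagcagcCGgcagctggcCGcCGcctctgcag
Tdg, chr10:82092333-82092632, plus strand: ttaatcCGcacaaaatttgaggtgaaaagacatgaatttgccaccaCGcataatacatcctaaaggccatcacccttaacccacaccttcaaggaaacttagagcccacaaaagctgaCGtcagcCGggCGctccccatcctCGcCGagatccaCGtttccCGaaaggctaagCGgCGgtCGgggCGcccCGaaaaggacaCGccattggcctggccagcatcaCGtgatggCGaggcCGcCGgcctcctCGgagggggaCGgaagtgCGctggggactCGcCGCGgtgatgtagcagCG
The windows hold 17, 57, 22 and 26 CpG, against a median of 7 over all promoter windows, of which 26.5% had at least 20. The Tet2 window is a repeat in part: moved by 42 bases, 157 of its first 200 bases meet the same base. None of the 17 windows of the 10 genes held the p53 response element decamer searched for here on either strand, which 8.36% of all windows hold. The RefSeq start of Tet1 lies inside the span of the gene in the deposited table.

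Tet1 lies on chromosome 10 from 62267318 to 62361866 (minus strand). Its normalized counts were 45871.7 and 24803.0 in untreated WT, 25649.7 and 9918.1 in treated WT, 30959.0 and 21016.2 in untreated Cfp1-/- and 15552.8 and 11111.2 in treated Cfp1-/- cells. Replicate 1 was above replicate 2 in every group, by so much that treated WT replicate 1 exceeded untreated WT replicate 2. The log2 fold change with doxorubicin was -0.94 (SE 0.42, adjusted p = 0.0928) in WT and -0.92 (SE 0.42, adjusted p = 0.0992) in Cfp1-/- cells, neither of which was called. With the replicate number as a block these became -1.01 (SE 0.18, adjusted p = 4.6e-04) and -0.91 (SE 0.18, adjusted p = 9.51e-04), and both were called. Both were also called without the low-count filter (-0.95 and -0.93, adjusted p = 0.0212 and 0.0235). The compared groups alone called the Cfp1-/- response too (-0.92, adjusted p = 0.0087). Of the 11 alternatives that leave out no single library, 4 called the WT and 5 the Cfp1-/- response. Compared by number, treated cells had 55.9% and 40.0% of the untreated level in WT and 50.2% and 52.9% in Cfp1-/- cells. The WT response also passed without treated WT replicate 1 (-1.79, adjusted p = 0.00652) or untreated WT replicate 2 (-1.34, adjusted p = 0.0363), and the Cfp1-/- response without either treated WT library (-0.93 in each case, adjusted p = 0.0273 and 0.0271). Without both treated libraries numbered 1 the responses were -1.79 (adjusted p = 0.009) and -1.20 (adjusted p = 0.0343). The genotypes overlapped, at -0.41 (adjusted p = 0.473) untreated and -0.39 (adjusted p = 0.527) treated. Leaving out WT replicate 1 of the condition turned these to 0.11 and 0.45.

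Tet2 lies on chromosome 3 from 133126643 to 133207354 (minus strand). It had 12505.1 and 6433.0 normalized counts in untreated WT, 3041.7 and 1401.6 in treated WT, 12909.6 and 8970.0 in untreated Cfp1-/- and 3925.7 and 2055.3 in treated Cfp1-/- cells. Again replicate 1 was higher in every group, yet treated and untreated replicates stood apart. Doxorubicin lowered Tet2 by 4.13-fold in WT (log2 -2.05, SE 0.44, adjusted p = 0.00416) and by 3.55-fold in Cfp1-/- cells (log2 -1.83, SE 0.44, adjusted p = 0.00709). In WT cells 1.31% of the tested genes had a lower log2 fold change. The WT value ranged from -2.72 without treated WT replicate 1 to -1.49 without untreated WT replicate 1, and was called throughout. The Cfp1-/- call was lost without treated Cfp1-/- replicate 2 (-1.43, adjusted p = 0.0668). Genotype gave 0.24 (adjusted p = 0.694) untreated and 0.46 (SE 0.43, adjusted p = 0.464) treated, and with the block the treated value was 0.48 (SE 0.14, adjusted p = 0.0178).

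Tet3 lies on chromosome 6 from 83312367 to 83391672 (minus strand). Its normalized counts were 410.3 and 551.5 in untreated WT, 1585.0 and 1525.2 in treated WT, 403.3 and 360.0 in untreated Cfp1-/- and 1296.0 and 1313.0 in treated Cfp1-/- cells. All 4 treated replicates exceeded all 4 untreated ones. Tet3 rose by 3.34-fold in WT (log2 1.74, SE 0.17, adjusted p = 4.33e-05) and by 3.52-fold in Cfp1-/- cells (log2 1.82, SE 0.17, adjusted p = 3.95e-05), and every alternative fit called both. It was the only one of the 10 genes to rise with doxorubicin in the fit reported here. With total count scaling Dnmt1 in WT was also called higher, at 0.41 (adjusted p = 0.0245). Against WT, the Cfp1-/- values of Tet3 were -0.30 (adjusted p = 0.193) and -0.23 (adjusted p = 0.332).

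Tdg, the thymine DNA glycosylase that removes oxidized 5-methylcytosine, lies on chromosome 10 from 82092573 to 82113544 (plus strand). It had 556.4 and 831.9 normalized counts in untreated WT, 357.6 and 350.7 in treated WT, 1101.4 and 1031.9 in untreated Cfp1-/- and 777.2 and 697.9 in treated Cfp1-/- cells. Treated replicates were lower than untreated ones in each line, and Cfp1-/- replicates higher than WT ones in each condition. Doxorubicin gave -0.92 (SE 0.20, adjusted p = 0.00417) in WT and -0.49 (SE 0.19, adjusted p = 0.0617) in Cfp1-/- cells. The latter was called with the block (-0.49, adjusted p = 0.0348), by DESeq2 (-0.53, adjusted p = 0.0397) and with its size factors (-0.53, adjusted p = 0.0455). It was also called in the compared groups alone (-0.49, adjusted p = 0.0223) and without the affected run (-0.53, adjusted p = 0.0409). Of the 11 alternatives that leave out no single library, 6 called it, and total count scaling gave -0.28 (adjusted p = 0.268). Without untreated WT replicate 1 or 2 it was -0.54 in each case. Cfp1-/- cells had 1.57-fold more untreated (log2 0.65, SE 0.20, adjusted p = 0.0285) and 2.12-fold more treated (log2 1.08, SE 0.20, adjusted p = 0.00497). The untreated call was lost without untreated WT replicate 1 (0.40, adjusted p = 0.173) or untreated Cfp1-/- replicate 1 (0.62, adjusted p = 0.113) or 2 (0.70, adjusted p = 0.0707). The treated call held without any single library and was lost without both treated libraries numbered 1 (1.00, adjusted p = 0.0779). In the second runs of these libraries Tdg had 1.43 and 1.13 times the count that the first runs predict.

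**Figure D2:**
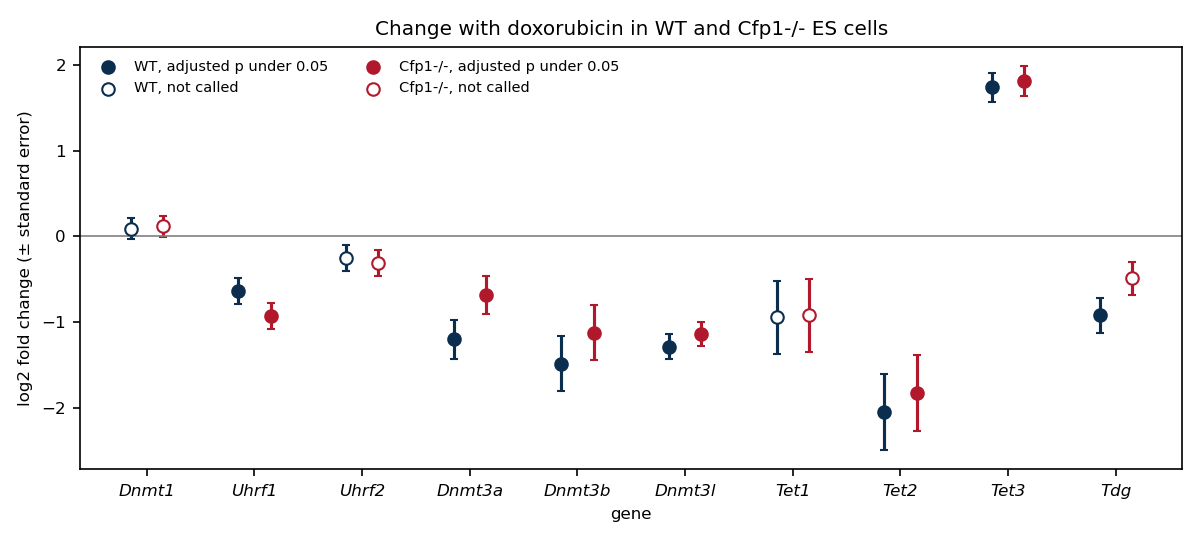
Log2 fold change (y axis) with doxorubicin for each gene (x axis) in WT (dark blue) and Cfp1-/- cells (red), with bars for the standard error from the edgeR fit (n = 2 per group) and filled points where the adjusted p was under 0.05. Tet3 lies at 1.74 and 1.82 and Tet2 at -2.05 and -1.83, and the points of both lines lie on the same side of 0 for every gene.

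The question for the doxorubicin comparison was whether the enzymes that write and remove methylation changed as the damage response set in, and whether this needed Cfp1. The share of the 10 genes called lower was thus above that of all genes in both lines and the share called higher was below it. The median log2 fold change of the 10 genes was -0.93 in WT and -0.80 in Cfp1-/- cells, whereas that of all tested genes was 0.06 and 0.03. The summed ES cell markers moved in the same direction, from 84881 to 112107 untreated to 31398 to 43702 treated, and the fibroblast sum moved in the other, from 128 to 257 to 393 to 569, with 3 of 6 genes called higher and 0 lower in each line. Primitive endoderm markers summed to 64.6 and 102 untreated and to 266 and 288 treated in WT cells, and to 214 and 227 untreated and to 507 and 546 treated in Cfp1-/- cells. Early primed epiblast markers summed to 1707 and 2190 untreated and to 169 and 207 treated in WT cells. In Cfp1-/- cells they summed to 620 and 1350 untreated and to 243 and 300.3 treated. Only 1 of 5 primitive endoderm genes was called higher in WT and 3 in Cfp1-/- cells, with 0 lower. Of the 3 early primed epiblast genes, 2 were called lower in WT and 1 in Cfp1-/- cells, with 0 higher. Of all tested genes, 26.6% were higher and 22% lower in WT, and 28.1% and 20.5% in Cfp1-/- cells. Trophoblast sums overlapped between treated and untreated cells of each line. Their part in the responses was not tested. Scaling by total counts moved the median of all genes to 0.37 and 0.23. The difference of the response between the lines was called for 0 of the 10 genes, against 0.241% of all genes. None had an unadjusted p under 0.05, DESeq2 called 0 as well, and the adjusted p ran from 0.608 to 0.997. This does not show equal responses. The 95% interval of the log2 difference, Cfp1-/- minus WT, was -0.45 to 0.60 for Tet3 and -0.29 to 0.59 for Dnmt3l, and it was as wide as -1.14 to 1.57 for Tet2 and -1.31 to 1.36 for Tet1. Dnmt3a had the highest estimate, 0.52 (-0.19 to 1.22), followed by Tdg, 0.43 (-0.19 to 1.06). With the replicate number as a block the intervals narrowed to -0.24 to 0.60 for Tet2 and -0.44 to 0.64 for Tet1. Dnmt3a was then the 1 gene whose interval lay apart from 0, at 0.54 (0.13 to 0.95), with an adjusted p of 0.193.

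**Figure D3:**
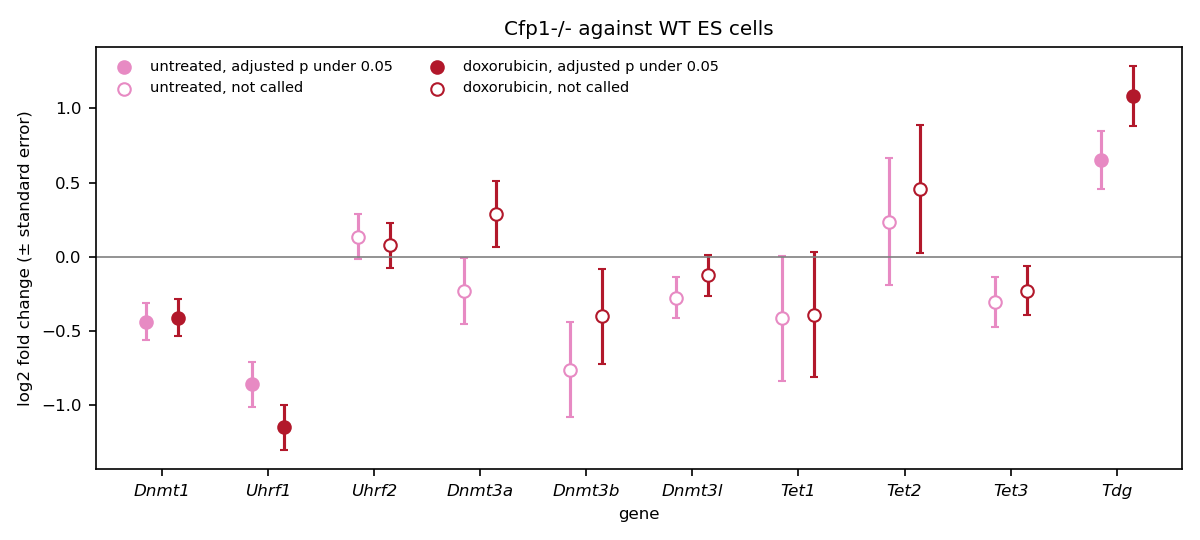
Log2 fold change (y axis) of Cfp1-/- against WT cells for each gene (x axis), untreated (pink) and with doxorubicin (red), with bars for the standard error (n = 2 per group) and filled points where the adjusted p was under 0.05. Dnmt1 and Uhrf1 are filled below 0, at -0.44 and -0.86 untreated, and Tdg is filled above 0, at 0.65 and 1.08.

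For the genotype comparison, 2 of 10 genes were called lower in untreated Cfp1-/- cells, against 16.3% of all tested genes, and 1 was called higher, against 18.1%. With doxorubicin 2 were lower, against 10.6%, and 1 was higher, against 15.5%. The called genes were Dnmt1, Uhrf1 and Tdg in both conditions. The 2 genotype comparisons share no library with each other, but both share libraries with the doxorubicin comparisons. The median over the 10 genes was -0.29 untreated and -0.18 treated, against 0.01 and 0.03 for all genes. These shares are near those of all tested genes, so the set as a whole did not stand out by the number of calls.

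Levels of different genes can be compared only per length, here as normalized counts per kilobase of annotated exon. In untreated WT cells Dnmt3b had a mean of 3510 per kilobase, Dnmt3l 2628, Dnmt1 2597 and Tet1 2402, and each of these overlapped the next in its replicates. Uhrf1 followed with 1778, which stood above Tet2 with 1029. Dnmt3a had 307, Uhrf2 267, Tdg 129 and Tet3 43.4 per kilobase, of which Dnmt3a and Uhrf2 overlapped. The value of Dnmt3a is low in part by construction, since 18 annotated transcripts give it 16.6 kb of exon. Treated WT cells had a different leader: Dnmt1 at 2680 stood apart from Dnmt3b at 1213, Tet1 at 1209, Uhrf1 at 1107 and Dnmt3l at 1044, which overlapped in this order. Treated Cfp1-/- cells also had Dnmt1 first, at 1984, apart from Dnmt3l at 942. In untreated Cfp1-/- cells Dnmt3l at 2132, Dnmt3b at 2033, Dnmt1 at 1881 and Tet1 at 1767 overlapped from one to the next.

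Within the TET family the share of Tet3 in the summed level per kilobase was 0.82% and 2.04% in untreated WT and 6.45% and 14.3% in treated WT replicates. It was 1.03% and 1.33% in untreated and 7.30% and 10.8% in treated Cfp1-/- replicates. Tet2 gave up part of its share, from 30.1% and 28.7% to 14.9% and 15.8% in WT, and from 39.6% and 40.0% to 26.6% and 20.4% in Cfp1-/- cells. Tet1 remained the main member, with 58.7% to 78.6% of the sum in every library. Among the Dnmt3 genes the proportions of Dnmt3b and Dnmt3l varied more between the WT replicates, with 46.2% and 60.7% Dnmt3b untreated and 42.6% and 56.3% treated, than between treatments.

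**Figure D4:**
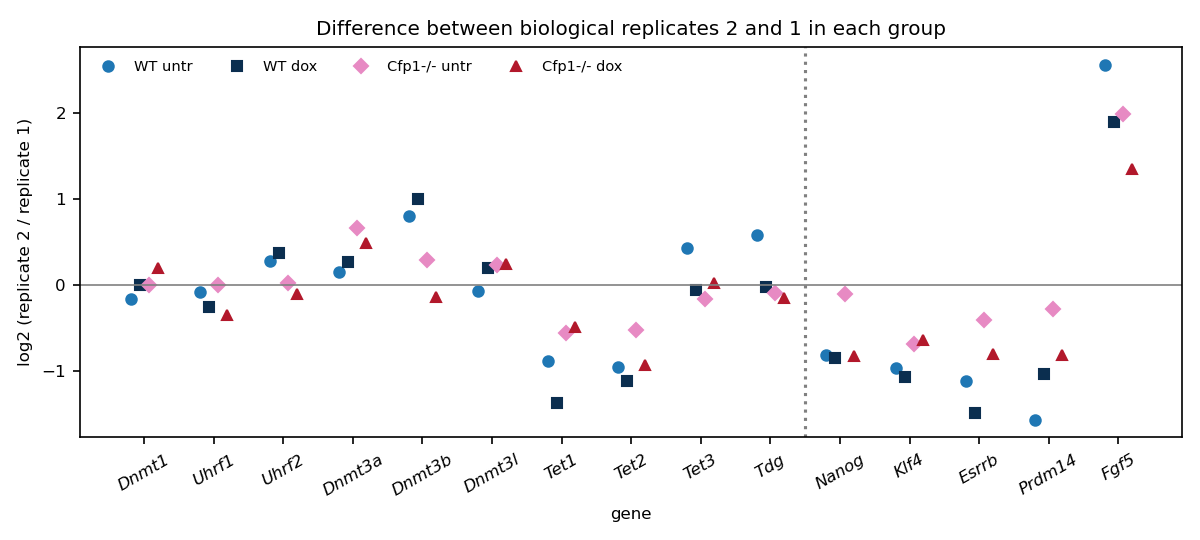
Log2 ratio of replicate 2 to replicate 1 (y axis) in each of the 4 groups, for the 10 genes and, right of the dotted line, for 5 genes named after their values were seen. Tet1, Tet2, Nanog, Klf4, Esrrb and Prdm14 lie below 0 in all 4 groups, and Dnmt3a and Fgf5 lie above 0 in all 4.

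The biological replicates differed in a recurrent way. Tet1 was higher in replicate 1 than in replicate 2 in all 4 groups, with log2 ratios of replicate 2 to replicate 1 of -1.37 to -0.49, and so was Tet2, at -1.12 to -0.53. Dnmt3a was higher in replicate 2 in all 4, at 0.15 to 0.66, and Dnmt3b in 3 of 4, at 0.80 and 1.00 in WT cells, 0.28 in untreated and -0.14 in treated Cfp1-/- cells. Uhrf1 was lower in replicate 2 in all 4, by less, at -0.35 to -0.00. Nanog, Klf4, Esrrb and Prdm14, which mark naive pluripotency, had the pattern of Tet1 and Tet2, with log2 ratios of -0.85 to -0.11 for Nanog and -1.49 to -0.41 for Esrrb. Fgf5, a gene of primed epiblast, had the opposite one, at 1.35 to 2.56. These 5 genes were chosen after their values were seen. Of the 10 ES cell markers, 9 were lower in replicate 2 in untreated WT, treated WT and treated Cfp1-/- cells, but only 4 in untreated Cfp1-/- cells. Among these markers Lin28a was higher in replicate 2 in all 4 groups, at 0.14 to 0.54. Of the 3 early primed epiblast genes, 1 to 3 were higher in replicate 2 in each group. Otx2 was at -0.06 in untreated and 0.09 in treated WT cells, and at 1.05 and 0.27 in Cfp1-/- cells. Pou3f1 was at 0 in both WT groups, at 1.33 in untreated and at -0.44 in treated Cfp1-/- cells. Over all 126 listed genes the median ratio was -0.01 to 0.01 in 3 groups and -0.11 in treated Cfp1-/- cells. Neither the labels nor the methods state what replicates of one number share. With the replicate number as a block, the SE of the WT doxorubicin response was 0.18 in place of 0.42 for Tet1 and 0.14 in place of 0.44 for Tet2.

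The genes most like the members that varied most were searched among 9505 genes averaging at least 200 normalized counts, by the root mean square difference of centred log2 values over the 8 biological replicates. The range of group means was 2.38 for Tet2, 2.03 for Tet3 and 1.90 for Dnmt3b on that scale. Tet2 was most like Zmym3 (difference 0.142, with the lost run corrected for, as this gene is on X), Zfp57 (0.171), a zinc finger protein that protects imprinted methylation, and B3galnt1 (0.231). Tet3 was most like Arap2 (0.0981), Ercc5 (0.106), a nucleotide excision repair endonuclease, and Synj2 (0.112). Dnmt3b was most like Acsl3 (0.103), Epcam (0.176), an epithelial adhesion molecule of ES cells, and Bcar3 (0.178). Likeness over 8 libraries of 4 groups is a description and says nothing of shared control.

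Other genes of the pathway were taken from lists chosen for their function, with earlier results of these data known. Over all tested genes, 22% were lower and 26.6% higher with doxorubicin in WT, and 20.5% and 28.1% in Cfp1-/- cells. In Cfp1-/- against WT cells, 16.3% were lower and 18.1% higher untreated, and 10.6% and 15.5% treated. Of 14 recruiters and heterochromatin partners, which target the methyltransferases or bind silent chromatin, 13 were lower and 0 higher with doxorubicin in WT, and 12 lower and 0 higher in Cfp1-/- cells, with medians of -0.90 and -0.70. Prdm14 (log2 -3.39, SE 0.58, adjusted p = 0.0011), which represses Dnmt3b in naive cells, and Zfp57 (-2.15, SE 0.44, adjusted p = 0.00309) fell most in WT. In untreated Cfp1-/- cells 7 of the 14 were lower and 2 higher. Prdm14 (1.82, SE 0.46, adjusted p = 0.0141) and Dppa3 (1.53, SE 0.24, adjusted p = 0.00159), which keeps Uhrf1 from chromatin, were the ones that were higher. Ehmt2 (-0.94, SE 0.15, adjusted p = 0.00189), a histone H3 lysine 9 methyltransferase, and Cbx5 (-0.70, SE 0.13, adjusted p = 0.00338), a heterochromatin protein, were lowest. Treated Cfp1-/- cells had 4 lower and 1 higher than treated WT cells.

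With doxorubicin, 26.6% of all tested genes were higher and 22% lower in WT, and 28.1% and 20.5% in Cfp1-/- cells. Of 10 genes of methyl-CpG binding proteins and their relatives, 2 were higher and 1 lower with doxorubicin in each line. Those higher in WT were Mbd6 (log2 2.11, adjusted p = 0.00128) and Mbd4 (0.38, adjusted p = 0.0424), a glycosylase for mismatches at CpG. Cfp1-/- cells had 0 higher and 2 lower in both conditions, and untreated these were Zbtb4 (-1.21, adjusted p = 0.0354) and Mbd3 (-0.77, adjusted p = 0.0046). The 14 base excision and deaminase genes had 2 higher and 2 lower with doxorubicin in WT, and 2 higher and 3 lower in Cfp1-/- cells. Apobec1, a cytidine deaminase, rose in WT from 60.3 and 105 to 659 and 566 normalized counts (log2 2.94, SE 0.26, adjusted p = 2.62e-05), and Xrcc1, a repair scaffold, by 1.16 (adjusted p = 6.33e-05). Apex1, the endonuclease that acts after Tdg, changed by -1.54 (SE 0.15, adjusted p = 4.22e-05) and Lig3 by -0.69 (adjusted p = 9.51e-04). In treated Cfp1-/- cells 3 of the 14 were higher and 2 lower than in WT, against 15.5% and 10.6% of all genes. In untreated ones it was 6 and 3, against 18.1% and 16.3%. Neil2 (1.48, adjusted p = 0.0047), a DNA glycosylase, was among those that were higher. Apobec2 (-1.75, adjusted p = 0.0163) and Gadd45a (-1.51, adjusted p = 0.00328) were the lowest.

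**Figure D5:**
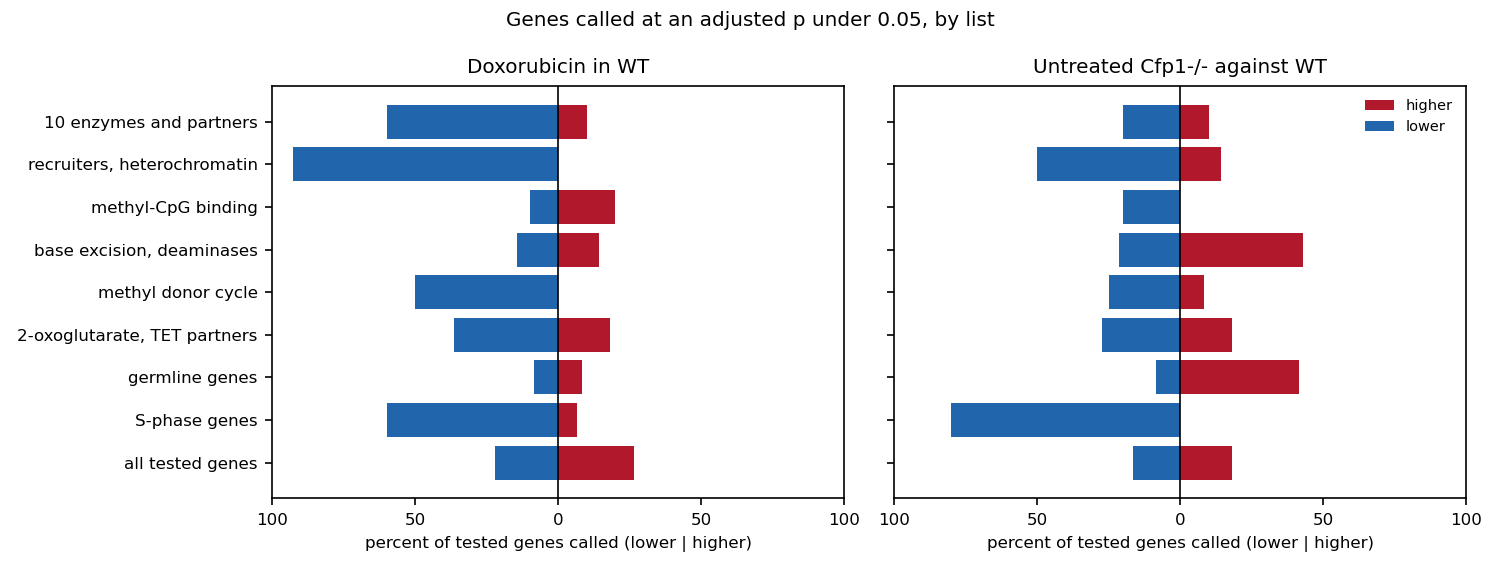
Percent of the tested genes of each list (x axis, with the lists on the y axis) called lower (blue, to the left) or higher (red, to the right) with doxorubicin in WT cells and in untreated Cfp1-/- against WT cells, with all 15758 tested genes in the bottom row. Recruiters and heterochromatin partners have 13 of 14 genes to the left with doxorubicin, and S-phase genes have 12 of 15 to the left in untreated Cfp1-/- cells, against 22% and 16.3% of all genes.

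The methyl donor cycle, which makes S-adenosylmethionine, had 6 of 12 genes lower and 0 higher with doxorubicin in WT and 7 and 0 in Cfp1-/- cells. Of all tested genes, 22% were lower and 26.6% higher with doxorubicin in WT, and 20.5% and 28.1% in Cfp1-/- cells. Shmt1 (log2 -1.16, adjusted p = 5.89e-05) and Mat2b (-1.13, adjusted p = 9.01e-05) fell most in WT. In untreated Cfp1-/- cells 3 were lower, led by Mthfd2 (-0.91, adjusted p = 0.00562) and Mat2a (-0.76, adjusted p = 0.00788), and Mtr (0.56, adjusted p = 0.0156) was higher. In treated ones 2 were lower and 2 higher. Of 11 genes of 2-oxoglutarate supply, the cosubstrate of the TET enzymes, and of TET partners, 2 were higher and 4 lower with doxorubicin in WT. Cxxc4 (3.26, SE 0.45, adjusted p = 2.98e-04), an inhibitor of Tet2, went from 8.49 and 12.5 to 91.7 and 102 normalized counts, and Idh1 rose by 0.62 (adjusted p = 0.0139). Idh3a (-0.56, adjusted p = 0.00442) was among those that were lower. The Cfp1-/- response of this list had 2 higher and 3 lower. In untreated Cfp1-/- cells Idh2 (1.57, SE 0.23, adjusted p = 0.00113) and Ogdh (0.66, adjusted p = 0.00337) were higher and 3 genes were lower, among them Cxxc5 (-0.77, adjusted p = 0.0446), and in treated ones 3 were higher and 2 lower. For both lists, the shares of all genes in the genotype comparison were 18.1% higher and 16.3% lower untreated, and 15.5% and 10.6% treated.

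Promoter methylation is known to silence the germline genes in somatic cells. Of 12, 5 were higher and 1 lower in Cfp1-/- than in WT cells in both conditions. Of all genes, 18.1% were higher and 16.3% lower untreated, and 15.5% and 10.6% treated. Asz1 went from 7.64 and 4.17 normalized counts in untreated WT to 429 and 329 in untreated Cfp1-/- cells (log2 5.97, SE 0.33, adjusted p = 8.65e-06). Dazl went from 260 and 268 to 1621 and 1206 (2.45, SE 0.28, adjusted p = 3.54e-04). Sycp3 differed in the other direction, from 3130 and 2610 to 244 and 253 (-3.50, SE 0.17, adjusted p = 5.51e-06). With doxorubicin 1 was higher and 1 lower in WT, Slc25a31 (1.12, adjusted p = 0.0139) and Sycp3 (-0.52, adjusted p = 0.0211), and 1 higher and 0 lower in Cfp1-/- cells. The shares of all genes were 26.6% higher and 22% lower in WT, and 28.1% and 20.5% in Cfp1-/- cells.

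Of 15 S-phase genes, in which maintenance methylation takes place, 9 were lower and 1 higher with doxorubicin in WT, and 10 lower and 1 higher in Cfp1-/- cells. Against WT, 12 were lower and 0 higher in untreated and 11 lower and 0 higher in treated Cfp1-/- cells, with medians of -0.60 and -0.68. Of all tested genes, 22% were lower and 26.6% higher with doxorubicin in WT, and 20.5% and 28.1% in Cfp1-/- cells. In the genotype comparison 16.3% of all genes were lower and 18.1% higher untreated, and 10.6% and 15.5% treated. Ccne1, the cyclin of S-phase entry, fell with doxorubicin by 1.52 on the log2 scale in WT (SE 0.15, adjusted p = 4.22e-05) and was at -1.41 in untreated Cfp1-/- cells (SE 0.15, adjusted p = 2.29e-04). Rrm2, a subunit of ribonucleotide reductase, rose by 0.58 with doxorubicin in WT (adjusted p = 0.0208) and was at -1.05 in untreated Cfp1-/- cells (SE 0.18, adjusted p = 0.00224). Slbp changed by -0.75 with doxorubicin (adjusted p = 0.00209). S-phase genes thus moved with Dnmt1 and Uhrf1 in the genotype comparison and with Uhrf1 in the doxorubicin comparison, and their part in those results was not tested. Markers of other cell types moved too: the fibroblast list had 1 higher and 3 lower of 6 in untreated Cfp1-/- cells, the primitive endoderm list 1 higher and 0 lower of 5, and early primed epiblast genes 1 higher and 2 lower of 3. The trophoblast list had 1 higher and 1 lower of the 3 genes tested, and its sum was 925 and 2459 in untreated WT and 248 and 154 in untreated Cfp1-/- cells. Their part was likewise not tested.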

How the data were processed

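RNA-seq of 8 biological replicates, 2 in each of 4 groups and each sequenced in 2 technical runs, was analysed from 2 tables. The first holds raw read counts per gene and run, which the authors deposited after aligning paired-end reads to NCBIM37 (mm9) with STAR (2.2.1 in the submitters' processing notes) and counting them with HTSeq, strand-specifically in union mode, on Ensembl release 67. The second holds a normalized signal that the authors deposited, in which counts were summed over runs and divided by a DESeq size factor. Level values and figures use this signal, and tests use the counts.

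Counts were summed over runs and tested with edgeR 4.0.16 in R 4.3.3 (quasi-likelihood test, TMM normalization, filterByExpr, 1 coefficient for each of the 4 groups, Benjamini-Hochberg adjustment over 15758 genes, threshold 0.05). For genes whose counts were lost in the second run of replicate 1 of treated Cfp1-/- cells (at least 20 counts in the first run and 0 in the second), the first run alone was used there. Labels do not say that replicates came from separate cultures, so p-values measure the spread between these samples. Alternatives were DESeq2 1.42.0, its size factors, total count scaling, no low-count filter, a replicate block, first runs alone, no affected run, the compared groups alone, an adjusted p under 0.01, and each library left out. After seeing the data, 3 were added: the block without the affected run, both treated libraries numbered 1 left out, and the affected run kept. Replicates of the same number deviated together across 15758 genes (r = 0.14 to 0.451 over the 6 pairs of groups), which is what pairs them here, since the sources used do not say what a number marks.

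The members and lists were chosen with earlier results of these data known. Of 127 listed symbols, 126 were found. The text names all members, up to 2 called genes at either end of each list for doxorubicin in WT and for untreated genotype, and the 3 genes most like each of the 3 members that varied most. Some list genes that this rule names are not reported here. Promoter windows are from RefSeq. The fit was tested on simulated data.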

Additional observations from a re-analysis of the deposited data

How the results depend on the processing

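The number of members called in untreated Cfp1-/- against WT cells was 3 and fell to 1 at an adjusted p under 0.01. With one library left out it moved both ways, and was lowest without either untreated Cfp1-/- replicate. In treated cells it was 3, and lower with both treated libraries numbered 1 left out. With the replicate number as a block the members called for doxorubicin were 8 in WT and 8 in Cfp1-/- cells, against 55.9% and 57% of all genes. For genotype they were 4 in each condition, against 43.6% of all genes untreated and 36.8% treated. The added calls were those of Tet1, Tet2, Tdg and Dnmt3b given above. The block changed no other call. Over all genes the response difference was called for 38 genes, 216 by DESeq2, 133 without the filter and 243 with the block, but for 0 to 13 with one library left out and 0 without both treated libraries numbered 1. Total count scaling moved the calls for doxorubicin in WT from 4187 higher and 3468 lower to 5731 and 1836, in Cfp1-/- cells from 4426 and 3236 to 5271 and 2057, and those for untreated genotype from 2856 and 2561 to 3849 and 1610.

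None of the values whose sign turned passed the test as reported, although the treated genotype difference of Tet2 passed with the block, the WT response of Dnmt1 with total counts and that of Uhrf2 without treated WT replicate 2. The response difference became -0.021 (first runs) and -0.0694 (total counts) for Dnmt1, -0.14 for Dnmt3b without both treated libraries numbered 1, -0.0762 (total counts) and -0.0373 (without the affected run) for Tet1, -0.0247 for Tet3 (total counts) and 0.0151 for Uhrf2 (first runs). The treated genotype difference became 0.0055 (block without the affected run) and 0.0031 (without the affected run) for Dnmt3l, 0.17 for Tet1 and -0.16 for Uhrf2 without both treated libraries numbered 1, and -0.21 for Uhrf2 with the affected run. The WT response of Uhrf2 became 0.0622 with total counts. With one library left out, the response difference ranged from -0.10 to 0.11 for Dnmt1, -0.13 to 0.94 for Dnmt3b, -0.53 to 0.86 for Tet1, -0.39 to 0.88 for Tet2, -0.19 to 0.23 for Tet3 and -0.24 to 0.14 for Uhrf2. The untreated genotype difference ranged from -0.59 to 0.0843 for Dnmt3a, -0.80 to 0.11 for Tet1 and -0.17 to 0.81 for Tet2. The treated one ranged from -0.82 to 0.18 for Dnmt3b, -0.92 to 0.45 for Tet1, -0.10 to 1.12 for Tet2 and -0.10 to 0.27 for Uhrf2, and the WT response of Dnmt1 from -0.0021 to 0.17. The causes were not tested. With 2 replicates per group, a library left out leaves its group with 1, assumed to vary like the others. The comparison of the compared groups alone was not run for the response difference, which needs all 4.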
